A study of Homo sapiens with 3 samples.

Results

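MEIS1 peaks annotated to genes of the FOX, SOX, GATA and TBX transcription factor families were examined in CWR22Rv1 cells with and without HOXB13. A peak belonged to the set when its annotated gene name was, in full, FOX with a letter and digits, SOX with digits, GATA with a digit from 1 to 6, or TBX with digits. This gave 44 of the 8015 peaks in both lists, and 17 of the 5096 gene names. CWR22Rv1 is an established human prostate carcinoma line. The LV-MEIS1 cells expressed MEIS1 from a lentiviral vector and kept endogenous HOXB13. The HOXB13ko-LV-MEIS1 cells carried the same vector after CRISPR knockout of HOXB13. Per the methods, that line also carried integrated Cas9 and was a recombined pool of knockout clones, and both lines therefore shared the exogenous MEIS1 but differed in Cas9 and in clonal history as well as in HOXB13.

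MEIS1 is a homeodomain protein of the TALE class and binds a short DNA core that reads TGACA, often beside a HOX protein. HOXB13 is the predominant but not the only HOX factor of the prostate, and posterior HOX proteins favour AT-rich words such as ATAAA. FOX proteins bind through a winged helix, SOX proteins through an HMG box, GATA proteins through zinc fingers and TBX proteins through a T-box. In the prostate, FOXA1 opens chromatin for the androgen receptor, GATA2 is a further partner of that receptor, and SOX9 is required for early budding. TBX3 is a repressor known from limb and mammary gland development.

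Each line had 1 peak list, called on pooled immunoprecipitations, 3 for LV-MEIS1 and 2 for HOXB13ko-LV-MEIS1. The pools held 202428594 and 105763683 tags, and pileups are scaled down to the size of the input. The file headers name the same input of 39102495 tags for both, although the methods mention input from each line, so the background of the HOXB13ko-LV-MEIS1 peaks may not be that of its own chromatin. A peak was listed when its q-value passed 0.01, and it carries the name of the gene with the nearest annotated start. A gene without a peak is therefore one that was nearest to no called position at this depth, and called positions in its neighbourhood can carry other names. There was no replicate error and no test between the lines. Intervals given for shares are 95% Wilson intervals, which cover counting error only. Neither expression nor the knockout itself can be read from peak lists.

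The sequences that carry the comparison were read from hg38. The first set holds the TGACA word nearest to the summit, 29 bases wide and on the strand that reads TGACA, with that word in capitals. It covers the peaks found in both lists and the highest peak with the word within 50 bp of the summit in each family. A further FOXA1 peak was added after the values were seen.
FOXA1, 67612 bp downstream, chr14:37527494-37527522, minus strand: actgaagaactaTGACAgcttatttgcta
FOXA1, 158444 bp downstream, chr14:37436622-37436650, minus strand: ctaagctttttaTGACAgcagtggcatta
SOX4, 36607 bp upstream, chr6:21557118-21557146, plus strand: ccacagcgatgtTGACAtacaatgattta
TBX3, 129195 bp upstream, chr12:114813343-114813371, minus strand: agactgacatgtTGACAtagctcccgaca
TBX3 promoter, both lists, chr12:114684379-114684407, minus strand: ctctgatcatgtTGACAtattcacaggac
TBX3, 27878 bp downstream, LV-MEIS1 summit, chr12:114656352-114656380, minus strand: actggtgtccaaTGACAtcaaatagaacc
TBX3, same peak, HOXB13ko-LV-MEIS1 summit, chr12:114656191-114656219, plus strand: ggctttgagtccTGACAtcagaacttaac
FOXN4, 2882 bp upstream, both lists, chr12:109312236-109312264, minus strand: ctccagcctagaTGACAgagcgagactcc
The word lay 0 bp from the summit at the FOXA1 peak 67612 bp downstream and 40 bp from it at the more distant FOXA1 peak. At SOX4 and at the upstream TBX3 peak it lay 2 bp away, and at the TBX3 promoter 12 bp from the LV-MEIS1 summit. By contrast, the nearest TGACA was 80 bp from the LV-MEIS1 summit in the downstream TBX3 peak and 148 bp from it in the FOXN4 peak. That FOXN4 stretch belongs to the LV-MEIS1 peak alone. It lay outside the narrower HOXB13ko-LV-MEIS1 peak, which held no TGACA. The remaining peak found in both lists, at FOXK1, held no TGACA.

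The 3 distal peaks found in both lists had an ATAAA word closer to the LV-MEIS1 summit. These stretches were chosen after the values were seen, are read on the plus strand, and have ATAAA in capitals.
FOXN4, chr12:109312054-109312082: gctgataagcttATAAAtcaactcagtca
TBX3, chr12:114656291-114656319: tgagcaacagcaATAAAtaaataagaaca
FOXK1, chr7:4416661-4416689: gtaatgttcctgATAAAcacgcatccggt
The word was 34 bp from the summit at FOXN4, 19 bp at TBX3 and 25 bp at FOXK1. In all LV-MEIS1 peaks together, 45.8% held ATAAA within 50 bp of the summit, so the word is common and its presence here is a description.

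Peaks of the 4 families were listed in larger number for LV-MEIS1 cells than for HOXB13ko-LV-MEIS1 cells. There were 37 peaks at 16 genes in LV-MEIS1 cells and 7 peaks at 6 genes in HOXB13ko-LV-MEIS1 cells, beside 5968 and 2047 peaks in the deposited lists. FOX genes held 23 of the LV-MEIS1 peaks at 10 genes, TBX genes held 10 at 3 genes and SOX genes held 4 at 3 genes. In HOXB13ko-LV-MEIS1 cells FOX genes held 5 peaks at 5 genes and TBX3 held 2. No SOX gene had a peak there, and no GATA gene was named in either list. GENCODE has only 19 SOX and 6 GATA coding genes. Of all coding gene names, 14.7% had an LV-MEIS1 peak and 5.64% a HOXB13ko-LV-MEIS1 peak. Counts of 0 in such small families cannot be set apart from these shares. The LV-MEIS1 pool also had the greater depth and 1 more immunoprecipitation, and their part in these counts was not tested.

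GENCODE lists 83 coding genes with such names, 45 FOX, 19 SOX, 6 GATA and 13 TBX. With LV-MEIS1, 16 of the 83 (19.3%, interval 12.2 to 29.04) had a peak, beside 14.7% of all coding gene names. With HOXB13ko-LV-MEIS1, 6 of the 83 (7.23%, interval 3.36 to 14.9) had a peak, beside 5.64% of all coding gene names. Both backgrounds lay inside the intervals, so peak presence in the families was near that of coding genes at large. The other 66 genes were named in neither list.

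Genes with a peak in both lists were FOXK1, FOXN4, FOXP1, FOXP2 and TBX3. They were 5 of the 16 LV-MEIS1 genes (31.3%, interval 14.2 to 55.6), beside 16.4% of all genes with an LV-MEIS1 peak. FOXK2 had a peak only in the HOXB13ko-LV-MEIS1 list, and 11 of the LV-MEIS1 genes had none there. Of the 37 LV-MEIS1 peaks, 4 (10.8%, interval 4.29 to 24.7) overlapped a HOXB13ko-LV-MEIS1 peak by at least 1 bp, beside 7.66% of all LV-MEIS1 peaks. Of the 7 HOXB13ko-LV-MEIS1 peaks, 4 (57.1%, interval 25.0 to 84.2) overlapped an LV-MEIS1 peak, beside 22.3% of that list. The backgrounds of 16.4% and 7.66% were inside the intervals, and that of 22.3% was just under the interval of the 7 peaks. That interval treats peaks as independent, which they were not, since TBX3 supplied 2 of the 4 that overlapped. So small a margin is therefore not read as a difference from the list.

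**Figure D1:**
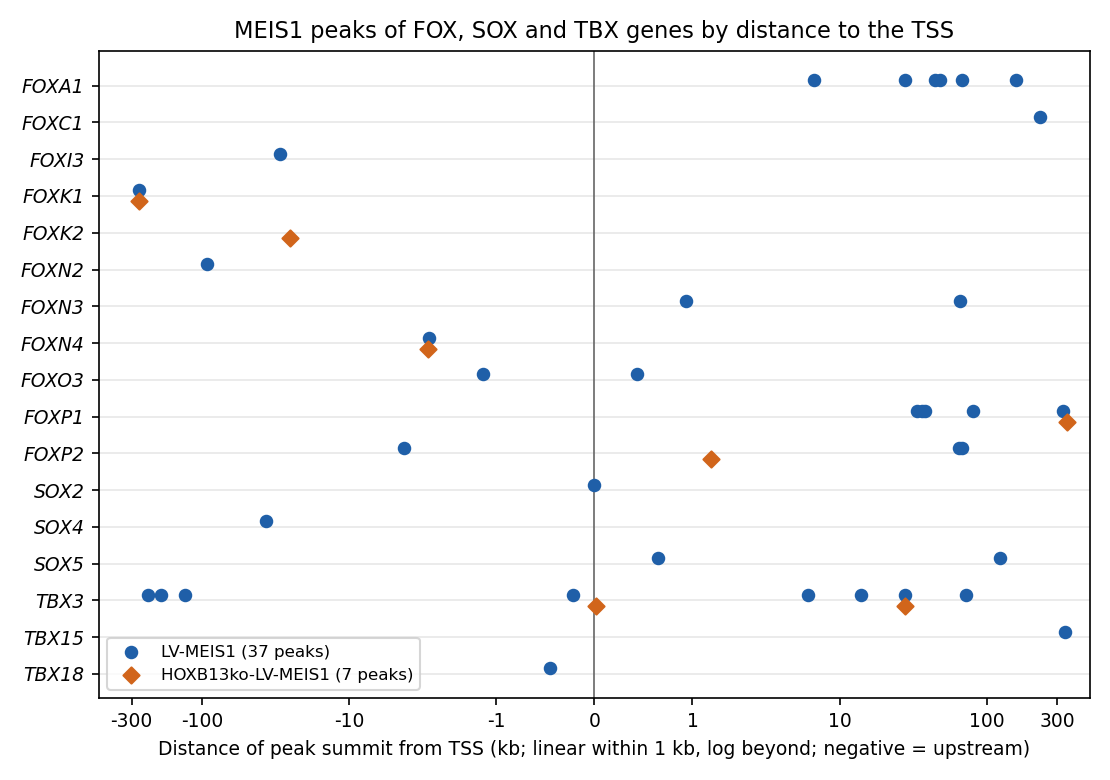
Distance of each peak summit from the annotated transcription start site in kb (linear within 1 kb of the start, logarithmic beyond), by gene, for LV-MEIS1 (circles, 37 peaks) and HOXB13ko-LV-MEIS1 (diamonds, 7 peaks). Within each gene row, diamonds are drawn slightly below circles. They stand at nearly the same distance as a circle at FOXK1, FOXN4 and the downstream TBX3 peak, and FOXK2 has a diamond alone.

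Most of the peaks lay away from promoters. In LV-MEIS1 cells 16 of the 37 were intergenic (43.2%, interval 28.7 to 59.1), 13 were intronic (35.1%, interval 21.8 to 51.2) and 5 were at promoters (13.5%, interval 5.91 to 28.0). The shares over all LV-MEIS1 peaks were 37.0%, 38.0% and 20.2%, each inside the interval. The promoter peaks were those of FOXO3, SOX2, SOX5, TBX18 and TBX3. In HOXB13ko-LV-MEIS1 cells 5 of the 7 were intergenic (71.4%, interval 35.9 to 91.8), 1 was intronic at FOXP2, and 1 was at the TBX3 promoter. The whole deposited list had 41.5% intergenic, 21.5% intronic and 24.5% at promoters, each inside the interval of the 7 peaks.

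The median distance to the transcription start site was 37993 bp over the 37 LV-MEIS1 peaks, with a 95% order-statistic interval of 27878 to 67677 bp. It was 23121 bp over all peaks of that list. Some of these distances are to internal starts, and measured to the GENCODE start of each annotated gene, an alternative chosen after the values were seen, the median of the 37 was 68551 bp. The interval treats peaks as independent, which they were not, since TBX3, FOXA1 and FOXP1 supplied many of them. By family the median was 44468 bp for FOX, 50188.5 bp for TBX and 18628.5 bp for SOX. The 7 HOXB13ko-LV-MEIS1 peaks had a median of 25088 bp, beside 10517 bp over all peaks of that list. The family genes thus had the larger median distance in both lists, with no test of that difference.

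Few of the LV-MEIS1 peaks of these genes fell in annotated repeats. Repeats were the detailed annotation of 2 of 37 (5.41%, interval 1.495 to 17.7), beside 19.5% of all LV-MEIS1 peaks. These were the FOXK1 peak, in an L3 element, and a TBX3 peak 190436 bp upstream, in a simple repeat. Among the HOXB13ko-LV-MEIS1 peaks 2 of 7 were in repeats, the same FOXK1 element and an MSTA element of the ERVL-MaLR class near FOXP1, beside 40.5% of that list. Upstream of the start lay 13 of the 37 LV-MEIS1 peaks (35.1%, interval 21.8 to 51.2), beside 47.5% of all LV-MEIS1 peaks, which is inside the interval. All 6 FOXA1 and all 5 FOXP1 peaks were among the 24 on the downstream side.

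Fold enrichment, the ratio of the summit pileup to local background, was close to that of the whole list. The median was 6.404 over the 37 LV-MEIS1 peaks and 6.17 over all, and 5.57 over the 7 HOXB13ko-LV-MEIS1 peaks and 5.85 over all. In LV-MEIS1 cells 7 of the 37 were above percentile 90 of the list by fold enrichment, 4 at TBX3 and 1 each at FOXA1, FOXN4 and FOXP1. None of the 7 was above that percentile in the other list. By family the LV-MEIS1 median was 6.65 for FOX (range 4.29 to 11.1), 6.12 for TBX (3.84 to 12.5) and 4.43 for SOX (3.81 to 7.44).

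**Figure D2:**
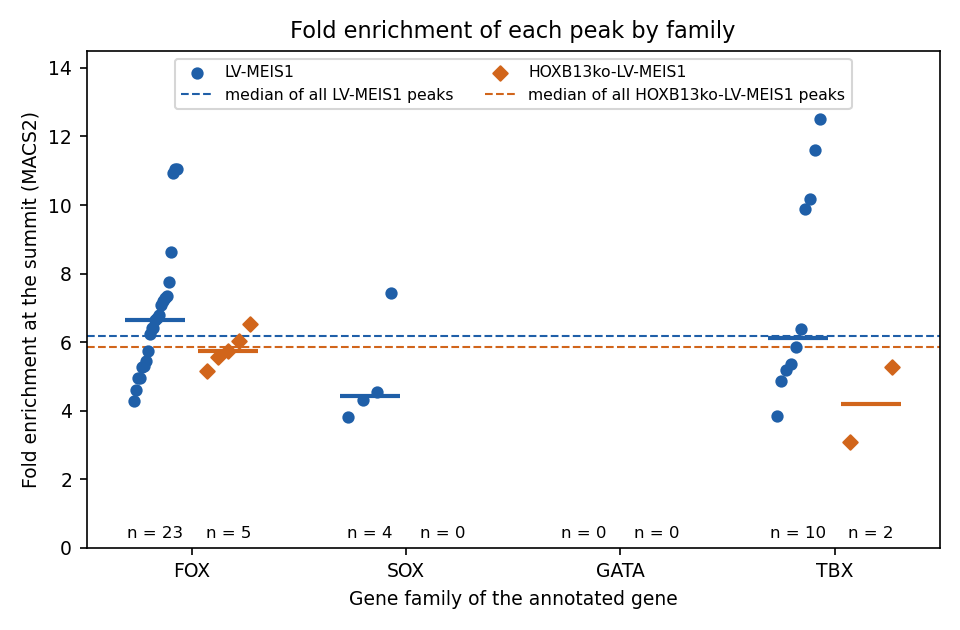
Fold enrichment at the summit of every peak, by family and list, with the median of each group as a solid bar and the median of the whole list as a dashed line. The highest points are at TBX3 (12.5 and 11.6) and, among FOX genes, at FOXP1 and FOXN4, and the GATA column is empty.

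TBX3 had the most peaks of any member, 8 in LV-MEIS1 cells and 2 in HOXB13ko-LV-MEIS1 cells. Only 14 genes of the LV-MEIS1 list had as many. From upstream to downstream the 8 summits lay 230413, 190436, 129195 and 217 bp before the start and 6104, 14068, 27878 and 72499 bp after it. Their fold enrichment was 3.84, 5.86, 11.6, 9.90, 5.202, 4.87, 12.5 and 10.2 in the same order. The 4 strongest were thus the promoter, 1 upstream and 2 downstream peaks. The summits spanned 302912 bp, of which only the peak 6104 bp downstream was inside the gene body (an intron), while the one 14068 bp downstream was at its end. TGACA was within 50 bp of 4 of the 8 summits.

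HOXB13ko-LV-MEIS1 cells had a peak at 2 of these positions, each of lower fold enrichment. At the downstream peak (chr12:114656088-114656489) the scaled pileup was 54.1 with LV-MEIS1 and 22.2 with HOXB13ko-LV-MEIS1 over the same background of 3.40. Fold enrichment was 12.5 and 5.27, which placed the peak at percentiles 97.1 and 37.3 of the respective lists, with summits 5 bp apart. At the promoter (chr12:114684157-114684606) fold enrichment was 9.90 with LV-MEIS1, at percentile 90.05 of its list, and 3.10 at percentile 5.67 with HOXB13ko-LV-MEIS1. The second call had a q-value of 0.00498, the weakest of the 7, and was 533 bp wide. Its summit was 237 bp from the LV-MEIS1 summit, on the other side of the start, and 249 bp from the TGACA printed for the promoter. The background was 3.20 at the LV-MEIS1 summit and 6.00 at the HOXB13ko-LV-MEIS1 summit. The scaled pileup was 40.6 and 20.7 in the same order. The strong TBX3 peaks 129195 bp upstream and 72499 bp downstream had no HOXB13ko-LV-MEIS1 peak, the nearest summit of that list being 129215 and 44616 bp away.

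FOXA1 had 6 LV-MEIS1 peaks and no HOXB13ko-LV-MEIS1 peak, and 43 genes had 6 or more in the LV-MEIS1 list. A missing HOXB13ko-LV-MEIS1 peak was common. Only 16.4% of all genes with an LV-MEIS1 peak had one, and 7.66% of all LV-MEIS1 peaks overlapped one. Counted downstream from its start, the summits lay at 6733, 27911, 44468, 47976, 67612 and 158444 bp. Fold enrichment was 4.60, 6.69, 5.75, 6.41, 10.9 and 8.63 in that order. The strongest, at chr14:37527354-37527662, had a scaled pileup of 49.3 over a background of 3.60. The 5 more distant peaks lay within the body of MIPOL1, the neighbouring gene, 2 of them in annotated introns and 2 in its 3' UTR. TGACA was within 50 bp of 4 of the 6 summits, and ATAAA within 50 bp of 5. The nearest HOXB13ko-LV-MEIS1 summit to any of them was 230237 bp away. In GENCODE the start of TTC6, on the other strand beside FOXA1, was slightly nearer to each of the 6 summits than that of FOXA1, for example 68121 against 68551 bp for the strongest.

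**Figure D3:**
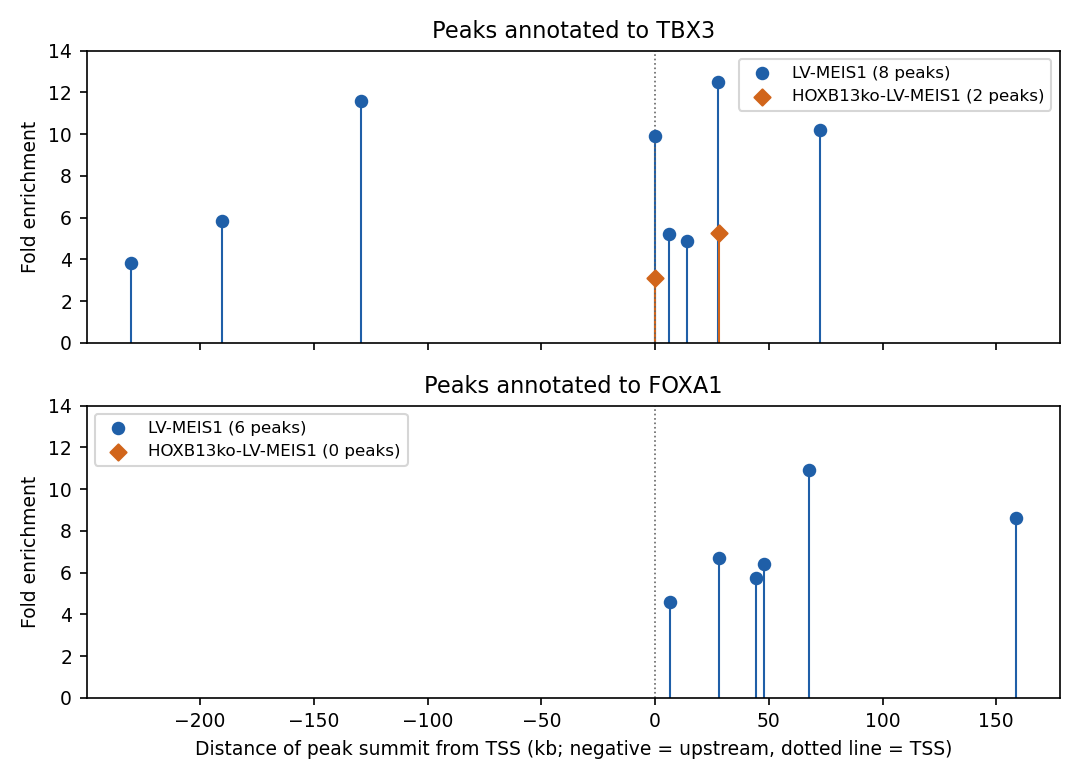
Fold enrichment of each peak annotated to TBX3 (upper) and FOXA1 (lower) against the distance of its summit from the transcription start site in kb, for LV-MEIS1 (circles) and HOXB13ko-LV-MEIS1 (diamonds). TBX3 has peaks on both sides of its start with 2 lower HOXB13ko-LV-MEIS1 peaks, whereas the 6 FOXA1 peaks all lie downstream with no diamond.

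Peaks that overlapped between the lists were lower in HOXB13ko-LV-MEIS1 cells at FOXN4 and FOXK1 too. FOXN4 is known for specifying retinal and spinal interneurons. Its peak (chr12:109311899-109312332) had a pileup of 54.9 with LV-MEIS1 and 25.1 with HOXB13ko-LV-MEIS1 over a background of 4.06 in both, with summits 6 bp apart. Fold enrichment was 11.04 at percentile 94.3 and 5.17 at percentile 35.0. FOXK1 is a forkhead repressor that acts in metabolism and autophagy. Its peak (chr7:4416520-4416785) lay 265649 bp upstream of its start. There the pileup was 27.6 and 22.6 over a background of 2.90 in both, and the fold enrichment was 7.35 at percentile 70.2 and 6.04 at percentile 55.4. Of the 4 overlapping pairs, FOXK1 differed least. With 1 pooled list a line, none of these differences could be set against a spread between cultures. The direction over all 457 LV-MEIS1 peaks that overlapped a HOXB13ko-LV-MEIS1 peak was not counted. The lower values can therefore not be called particular to these genes.

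**Figure D4:**
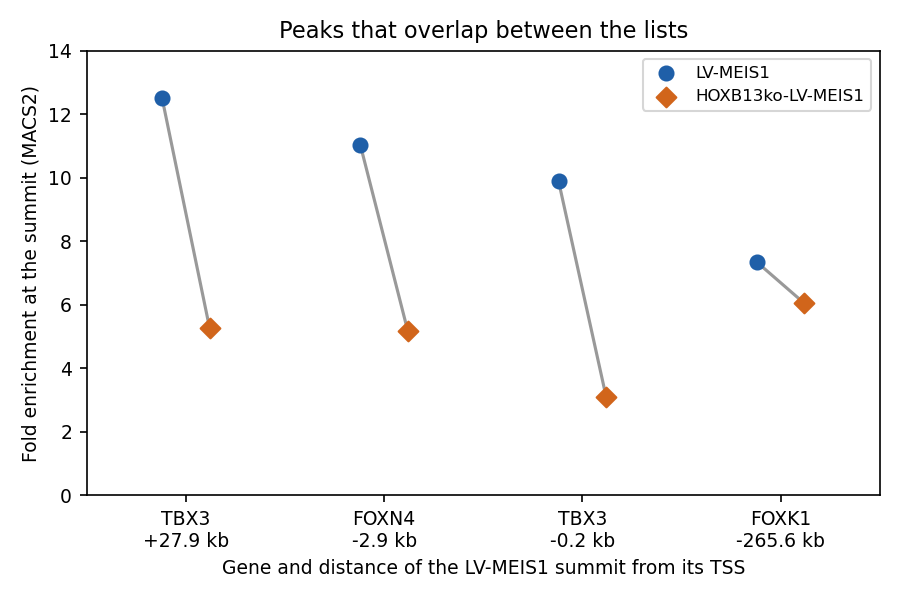
Fold enrichment of the 4 peaks that overlap between the lists, LV-MEIS1 (circle) joined to HOXB13ko-LV-MEIS1 (diamond), labelled by gene and distance from its start. Each diamond is below its circle, for example at the downstream TBX3 peak (12.5 and 5.27), the TBX3 promoter (9.90 and 3.10) and FOXK1 (7.35 and 6.04).

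FOXP1 and FOXP2, related repressors known from lymphoid and speech circuit development, had peaks in both lists at different positions. FOXP1 had 5 LV-MEIS1 peaks. Of these, 4 lay 33605, 37993, 80935 and 326771 bp downstream of the same annotated start, with fold enrichment of 6.24, 4.97, 11.1 and 6.404. The other lay 36354 bp downstream of a different annotated start, with a fold enrichment of 6.81. All but the peak at 326771 bp were in introns of FOXP1. Both starts are internal to the gene, since the GENCODE start of FOXP1 was 375167 to 599990 bp from the 4 intronic summits. The strongest of all FOX peaks was the one at 80935 bp (chr3:70983807-70984170), where TGTTTA but not TGACA was within 50 bp of the summit. The HOXB13ko-LV-MEIS1 peak had a fold enrichment of 6.52 and lay 352271 bp from its annotated start, 25500 bp from the nearest LV-MEIS1 summit. In GENCODE both this peak and the LV-MEIS1 peak at 326771 bp had MDFIC2 as the nearest coding start. FOXP2 had LV-MEIS1 peaks 4253 bp upstream and 64601 and 67677 bp downstream, with fold enrichment of 5.29, 7.21 and 4.29. Its HOXB13ko-LV-MEIS1 peak was 1327 bp downstream of the start in a CpG annotation, with a fold enrichment of 5.75. The nearest LV-MEIS1 summit was 5580 bp away.

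FOXK2, a close relative of FOXK1, had its peak in the HOXB13ko-LV-MEIS1 list alone (chr17:82494519-82494799), 25088 bp upstream and enriched 5.57-fold, at percentile 44.2. Among the 7 it alone had TGACA within 50 bp of the summit. The nearest LV-MEIS1 summit was 36473 bp away. The FOXK2 gene body itself held a different HOXB13ko-LV-MEIS1 summit, deposited under another gene name, and no LV-MEIS1 summit.

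The other FOX genes had LV-MEIS1 peaks only. FOXO3, the factor restrained by insulin and AKT signalling, had peaks 1229 bp upstream in a CpG annotation and 438 bp downstream in the promoter class, with fold enrichment of 4.97 and 5.45. FOXN3 had peaks 936 and 65336 bp downstream of an annotated start with fold enrichment of 7.30 and 7.10. The GENCODE start of the whole FOXN3 gene was 202975 and 267375 bp from these summits, so the short distance is to an internal start. FOXC1, known from anterior eye development, had a peak 228345 bp downstream inside an intron of GMDS with a fold enrichment of 7.74. FOXI3 and FOXN2 had peaks 29673 and 92548 bp upstream with fold enrichment of 6.65 and 5.31. Of the 11 FOX genes in either list, only FOXA1, FOXP1 and FOXP2 had 3 or more LV-MEIS1 peaks. With TBX3, 4 of the 16 LV-MEIS1 genes (25.0%, interval 10.2 to 49.5) had 3 or more, beside 8.68% of all genes in that list, which is under the interval.

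SOX genes had 4 peaks in LV-MEIS1 cells, 3 of them of low fold enrichment. They had none in HOXB13ko-LV-MEIS1 cells, where only 5.64% of all coding gene names had a peak. SOX2, a pluripotency factor, had a peak 7 bp upstream of its start (chr3:181711772-181712042), the closest of all, with a fold enrichment of 4.32 at percentile 9.08. SOX5, a partner of SOX9 in cartilage, had fold enrichment of 4.54 at 650 bp, in the promoter class, and 3.81 at 122112 bp. The 650 bp refers to an internal start, since the GENCODE gene start was 612162 bp from that summit. SOX4, which acts in progenitor cells of many tissues, had the strongest SOX peak, with a fold enrichment of 7.44 at percentile 71.2. TGACA was within 50 bp of all 4 SOX summits, though 4 peaks are too few to set apart from the 56.1% of the whole list. TBX18, known from the sinoatrial node, had a promoter peak 456 bp upstream with a fold enrichment of 5.36, and TBX15, known from skeletal development, had a peak 337612 bp downstream with a fold enrichment of 6.38.

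TGACA was common at the summits of the LV-MEIS1 peaks as in the whole list. It was within 50 bp of 19 of 37 summits (51.4%, interval 35.9 to 66.6), beside 56.1% of all LV-MEIS1 peaks. It was in 12 upstream and 6 downstream flanks, centred 500 bp away, or 24.3% of flanks (18.9% over all peaks). The word was at the summit alone in 12 peaks and in the upstream flank alone in 5, and in 16 and 3 for the downstream flank. The larger of both two-sided exact binomial p-values was 0.143, so the excess at the summits of these 37 peaks did not pass 0.05 against both flanks. Where present, the word lay at a median of 15 bp from the summit, and 11 of the 19 lay within 20 bp. In HOXB13ko-LV-MEIS1 cells 1 of the 7 summits had TGACA (14.3%, interval 2.57 to 51.3), beside 16.8% of that list.

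Other words were counted on both strands in the same windows, with the letters of each family's own binding word among them. TGACAG, which contains TGACA, was at 8 of 37 LV-MEIS1 summits (21.6%, interval 11.4 to 37.2; 30.4% of all). ATAAA was at 20 (54.1%, interval 38.4 to 68.96), beside 32.4% in each flank. The forkhead word TGTTTA was at 10 (27.0%, interval 15.4 to 43.0; 19.9% of all), beside 10.8% and 5.41% in the flanks. The GATA word AGATAA was at 4 (10.8%; 9.63% of all) and the SOX word ACAAT at 8 (21.6%; 20.4% of all). The T-box word GGTGTGA was at 0 of 37, which allows a share of up to 8.11% if a count of 0 is taken to allow 3 (Wilson upper limit 9.41%), beside 1.16% of all. Shares of all these words over the whole deposited LV-MEIS1 list lay inside the LV-MEIS1 intervals where these are given.

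The gene name of a peak depended on which starts were considered, and GATA and SOX9 were the clearest cases. The deposited names come from the nearest start of any RefSeq transcript, long non-coding RNAs included. As an alternative chosen after the values were seen, each summit was named by the nearest start of a GENCODE coding gene. Peaks of the 4 families then numbered 55 at 24 genes with LV-MEIS1 and 12 at 10 genes with HOXB13ko-LV-MEIS1. The 24 were 28.9% of the 83 (interval 20.3 to 39.4), beside 18.8% of all coding names, which is under the interval, and the 10 were 12.05% (interval 6.68 to 20.8), beside 7.65%, which is inside it. GATA3, a luminal epithelial factor, gained 6 LV-MEIS1 peaks and SOX9 gained 4, while FOXA1 went from 6 to 1. That 1 was deposited under TTC6, lay 45284 bp upstream of the FOXA1 start and had a fold enrichment of 8.29 with TGACA within 50 bp of its summit.

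The 6 peaks next to GATA3 were deposited under GATA3-AS1, LINC00708, LOC105755953 and LINC00709. Their fold enrichment was between 5.76 and 9.13, highest at the peak 78093 bp upstream of GATA3, which lay in an intron of TAF3. The other 5 were 334887 to 1067278 bp downstream of its start. TGACA was within 50 bp of 3 of the 6 summits. None of the 6 peaks overlapped a HOXB13ko-LV-MEIS1 peak, where only 7.66% of all LV-MEIS1 peaks did. GATA2 had no peak under either name, but a peak 110677 bp from its start, deposited under DNAJB8-AS1, had a fold enrichment of 13.0 with LV-MEIS1, and HOXB13ko-LV-MEIS1 cells had a summit 110721 bp from the start with a fold enrichment of 6.26. For GATA1, GATA4, GATA5 and GATA6 the nearest LV-MEIS1 summits were 247073, 2163868, 1418658 and 180522 bp from the start. The nearest HOXB13ko-LV-MEIS1 summits were 4285303, 392593, 48357 and 4455055 bp away, nearer than those of LV-MEIS1 for GATA4 and GATA5.

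SOX9 had 4 LV-MEIS1 peaks under the alternative naming, 939763, 667453 and 210906 bp upstream and 414061 bp downstream. They were deposited under CASC17, ROCR and LINC00673, with fold enrichment of 5.77, 6.67, 11.5 and 7.83. None had TGACA within 50 bp of its summit. None overlapped a HOXB13ko-LV-MEIS1 peak either, where only 7.66% of all LV-MEIS1 peaks did. Peaks in both lists were added at FOXO3 and SOX2. At FOXO3 a peak at the end of the gene, 125129 bp from its start and deposited under LINC00222, had fold enrichment of 11.6 with LV-MEIS1 and 7.28 with HOXB13ko-LV-MEIS1, with summits 24 bp apart. At SOX2 a peak 139428 bp downstream, deposited under LINC01206, had 7.35 and 4.30, with summits 47 bp apart. In both pairs the HOXB13ko-LV-MEIS1 value was again the lower, but the direction over all overlapping peaks was not counted. SOX11 gained a peak in each list that did not overlap, with fold enrichment of 12.4 and 10.3. FOXL3 gained 2 peaks in the HOXB13ko-LV-MEIS1 list alone, 27083 and 26326 bp upstream, with fold enrichment of 7.64 and 7.82. FOXC1 gained a HOXB13ko-LV-MEIS1 peak 85766 bp upstream with a fold enrichment of 6.04. Neither the FOXL3 nor the FOXC1 gains overlapped an LV-MEIS1 peak, where only 22.3% of the HOXB13ko-LV-MEIS1 list did.

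**Figure D5:**
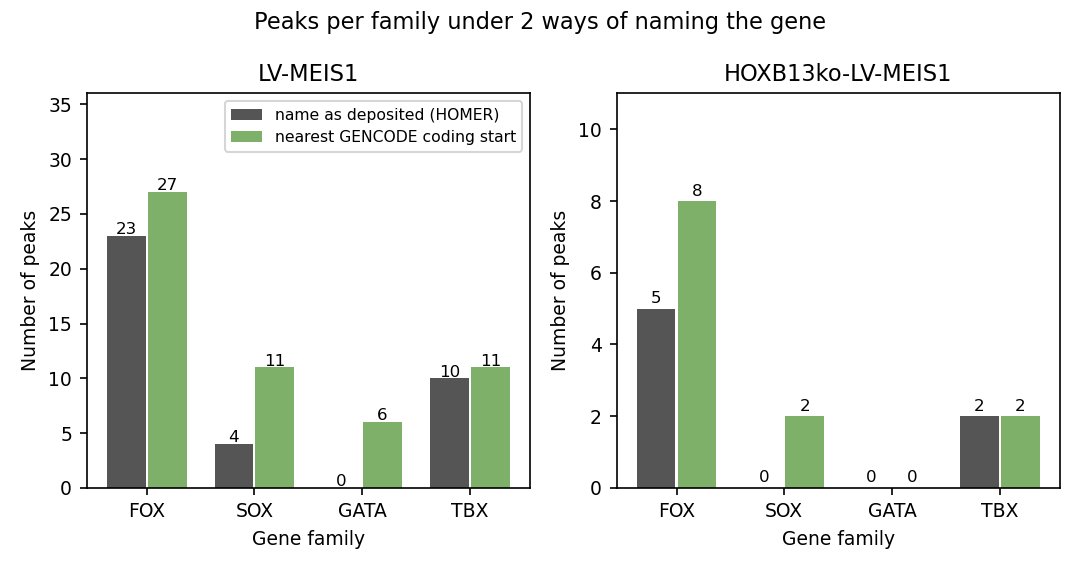
Number of peaks per family in each list when the gene is named as deposited (grey) and by the nearest GENCODE coding gene start (green). GATA goes from 0 to 6 and SOX from 4 to 11 in the LV-MEIS1 list, while TBX changes from 10 to 11.

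Counted by distance alone, whatever the deposited name, the families were close to coding genes at large. A summit lay within 100 kb of the GENCODE start of 31 of the 83 genes with LV-MEIS1 (37.3%, beside 40.6% of coding genes) and of 15 with HOXB13ko-LV-MEIS1 (18.1%, beside 20.6%). Within 10 kb the counts were 8 (9.64%, beside 11.1%) and 5 (6.02%, beside 4.76%). FOXM1, a mitotic factor, was within 10 kb of a summit in both lists (8316 and 8273 bp) although these peaks were deposited under TULP3, with fold enrichment of 8.78 and 6.90.

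Related genes outside the name rule had peaks in one list or the other. From a list of 29 T-box, GATA-type, FOX-copy, SRY and neighbouring non-coding genes, 5 had LV-MEIS1 peaks (17.2%, interval 7.60 to 34.5) and 4 had HOXB13ko-LV-MEIS1 peaks (13.8%, interval 5.50 to 30.6), and no gene had both. The shares of coding gene names given above, 14.7% and 5.64%, lie inside these intervals, but many genes of the list are non-coding. The former were CASC17 with 3 peaks, TRPS1, a GATA-type repressor, with 2, and GATA3-AS1, TBR1 and FOXD4L5 with 1 each. FOXD4L5 has near-identical copies, so its reads could be split between them. The latter were MGA, a MAX partner with a T-box, with 2 peaks, and EOMES, FOXO3B and FOXCUT with 1 each. The MGA peak 347 bp from its start was enriched 9.77-fold, at percentile 92.2, and the EOMES peak 454 bp from its start had 6.07. FOXN3-AS2, outside that list, had 2 LV-MEIS1 peaks, both in an intron of FOXN3, with fold enrichment of 7.74 and 6.30.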

How the data were processed

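The authors trimmed reads (Trimmomatic 0.38), removed duplicates (Picard 2.18.10), aligned them to hg38 with Bowtie2, merged the immunoprecipitations within a line and ran MACS2 2.1.2 against a shared input, extending reads to 200 bp. HOMER 4.9.1 gave each peak its class, gene and distance. The deposited signal is the summit pileup, scaled to the input. Fold enrichment, as deposited, is a ratio of pileup to local background, with 1 added to both. The deposited −log10 p- and q-values stand in columns whose headers were damaged and were identified from the column order of MACS2 and, for the q-value, from the score in the annotation; the q-value was used for filtering, and other deposited columns give coordinates and distances in bp.

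From these, peaks were selected by gene name, percentiles were ranks of fold enrichment within a list, and background pileup was derived from pileup and fold. The lists overlapped when sharing 1 bp. Gene starts came from GENCODE release 44 and words from hg38. Named were members with a peak in both lists, any HOXB13ko-LV-MEIS1 or promoter peak, 3 or more LV-MEIS1 peaks or the 3 highest fold values of a family, and FOXA1, SOX9, SOX2, GATA2 and TBX3. FOXI3, FOXL3, FOXN2, FOXN3, FOXC1, FOXM1, SOX11, GATA1, GATA3, GATA4, GATA5 and GATA6 were named after their values were seen where that rule did not reach them. Members and lists were chosen with earlier results of these data known. Alternatives were stricter q-value and fold limits, main chromosomes only, distance limits, looser names, other overlaps, and other words and windows. The overlap, word search and test were tested on simulated data. Python 3.11.15, pandas 2.3.3, scipy 1.17.1 and pysam 0.24.0 were used.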

Additional observations from a re-analysis of the deposited data

How the results depend on the processing

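Of 48 values recomputed under the alternatives named above, 39 stayed within 1.5 times the reported count, within the reported interval or on the same side of 0.05. The limits on distance changed most. Within 100 kb of the start, 3 genes had a peak in both lists in place of 5. Within 10 kb, 11 LV-MEIS1 peaks at 9 genes and 3 HOXB13ko-LV-MEIS1 peaks at 3 genes were left, 3 genes had a peak in both lists, 45.5% of the LV-MEIS1 peaks were at promoters and their median distance was 936 bp, with only near peaks admitted by construction. TGACA at 51.4% of summits passed 0.05 when the flanks were taken farther away (exact binomial p = 0.00754), and the p-values of all 5 alternatives for this word ran from 0.00754 to 0.375. A q-value of at most 0.0001, a fold enrichment of at least 5, main chromosomes only, looser gene names and 3 other definitions of overlap moved no count by more than 1.5 times. Some of these could hardly do so. All peaks of these genes were on main chromosomes, and the q-value limit left 37 LV-MEIS1 and 6 HOXB13ko-LV-MEIS1 peaks. Naming peaks by the nearest GENCODE coding start, an alternative chosen after seeing the data, gave 12 HOXB13ko-LV-MEIS1 peaks at 10 genes and 8 genes in both lists. Among genes in both lists, FOXP1 dropped out and FOXC1, FOXO3, SOX2 and SOX11 came in. The share of all coding genes in both lists was not counted under this naming. Measured to the GENCODE start of the annotated gene, also chosen after seeing the data, the median distance was 68551 bp.

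No paired analysis was possible because each line has 1 list from pooled immunoprecipitations. No replicate was left out, since none is given on its own. The smaller HOXB13ko-LV-MEIS1 pool and the input, smaller than either pool, limit what a missing peak means, and no list gives the signal at a position it did not call.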
